A study of Mus musculus with 6 samples.

Results

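The genes described here are 7 Toll-like receptors (Tlr1, Tlr2, Tlr3, Tlr4, Tlr6, Tlr7 and Tlr9), the co-receptors Cd14 and Ly96, and the adaptor Myd88. They were chosen by name, and every probe set with exactly 1 gene symbol that named one of them was taken. This gave 16 probe sets for 10 genes, of 18193 genes named in this way on the array. RNA came from primary mouse microglial cells in culture, hybridised to single-colour arrays, with 3 samples described as Dap12-ko and 3 as wt (called Dap12-deficient and wild-type cultures here). Dap12, encoded by Tyrobp, is a membrane adaptor of myeloid cells that relays signals of Trem2 and other receptors. The labels state no strain, age, sex, kind of deletion or treatment, and do not say whether samples came from separate animals. Of the 6 sample titles 4 carry a pair of joined numbers and 2 a single number, and whether these stand for pools, animals or hybridisations is not stated. The p-values therefore measure only how these 6 samples vary, which may be technical.

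Toll-like receptors recognise microbial and damage-derived molecules. Tlr2 works at the cell surface as a pair with Tlr1 or Tlr6 and binds bacterial lipopeptides, while Tlr4 binds lipopolysaccharide together with Ly96 (MD-2), to which Cd14 delivers the ligand. Tlr3, Tlr7 and Tlr9 sit in endosomes and sense double-stranded RNA, single-stranded RNA and unmethylated CpG DNA. All of these receptors except Tlr3 signal through Myd88 to NF-kB and inflammatory genes, and Tlr3 and internalised Tlr4 signal through TRIF (Ticam1) to interferon genes. Microglia carry most of these receptors.

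The targeted gene checks the labels. Tyrobp gave signals of 5396 to 7271 on the wild-type arrays and 96.2 to 125 on the Dap12-deficient arrays, and its log2 difference was -5.64 (limma adjusted p = 8.14e-07). No source used here says where its probes lie relative to the deletion. All 8 microglial and macrophage markers passed the filter on signal, from Csf1r at 5439 to 9522 and Fcrls at 4280 to 7360 to Cx3cr1 at 197 to 1571, Tmem119 at 257 to 516 and Itgam at 86.7 to 185. Of 27022 probe sets tested, 2 (0.00740%) passed an adjusted p of 0.05, and at an unadjusted p under 0.05 there were 10.7% (7.05% higher in Dap12-deficient cultures, 3.61% lower). Groups did not overlap for 16.5% of probe sets (9.60% higher, 6.89% lower). The higher share of those unadjusted calls was 66.1% as deposited, 56.1% after quantile normalization and 20.4% when each array was scaled to a common median. That last scaling moved the median difference of all probe sets from 0.03 to -0.16, and small positive differences below turned sign with it. The number of arrays limits the precision of every value.

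No Toll-like receptor, co-receptor or Myd88 probe set passed the threshold. By the lead probe set, which is the brightest of a gene, 6 of the 10 genes had a higher and 4 a lower mean log2 signal in Dap12-deficient cultures, and with a common median 1 of them, Tlr3, stayed higher. The median log2 difference over the 10 genes was 0.02, beside -0.03 over 12875 genes. At an unadjusted p under 0.05 there was 1 of 10 genes, beside 9.63% of all genes. That count was 0 without wild-type array 2, without wild-type array 3 or without Dap12-deficient array 3. It was 3 without Dap12-deficient array 1 or with a common median. With a term for Y-linked genes in the model it was 2, Tlr6 and Tlr7 but not Tlr1. At the same p the share of all probe sets was 8.79% without wild-type array 2, 7.23% without wild-type array 3 and 9.09% without Dap12-deficient array 3. It was 10.3% without Dap12-deficient array 1, 15.1% with a common median and 8.34% with the Y-linked term. By probe set there were 4 of 15 tested, beside 10.7% of all probe sets: Tlr1, a dim Tlr4 set that passed the filter through 1 group only, and a pair of Tlr7 sets from a single sequence tag. Groups did not overlap for 2 of 10 genes, Tlr1 with all Dap12-deficient arrays lower and Ly96 with all higher, beside 16.4% of all genes (7.54% higher, 8.85% lower). In RNA of whole cultures, fewer cells of a type and less RNA per cell cannot be told apart.

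Sequence upstream of listed transcription starts was found for 6 of the 10 genes (Tlr1, Tlr2, Tlr3, Tlr6, Tlr9 and Myd88). The starts, 8 in all, came from the RefSeq promoter table of build GRCm38.p6. The 250 bases before each start were searched on both strands for AGGAAGT, the core letters of sites for ETS factors such as PU.1 that mark myeloid promoters, for the interferon-stimulated response element (GAAA, any 2 bases, GAAA), and for the NF-kB consensus. The stretches that hold a match are shown because NF-kB and interferon genes lie at the end of these pathways. Among 32851 promoters of this length AGGAAGT was present in 7.69%, the response element in 2.98% and the NF-kB consensus in 7.25%. A match is a description of the letters only. Each stretch is 30 bases, 5′ to 3′ along the gene, with the match in capitals, and all 6 lie on the minus strand.
Tlr1: attaaatgttggAGGAAGTaggagcttgaa
Tlr6, ETS letters: ttgtctcctcatACTTCCTttaaaataaat
Tlr6, response element: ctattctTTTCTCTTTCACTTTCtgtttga
Tlr2: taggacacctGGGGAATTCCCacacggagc
Tlr3: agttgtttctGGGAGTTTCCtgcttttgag
Myd88: gagcttctcgGAAAGCGAAAgaaggagggg
The Tlr1 stretch (chr5:64933563-64933592) carries the ETS letters 22 to 16 bases before the start, and the Tlr6 stretch (chr5:64959211-64959240) carries them in reverse orientation 62 to 56 bases before its start. The second Tlr6 stretch (chr5:64959260-64959289) holds 2 overlapping response element matches, 116 to 101 bases before the same start. Tlr1 and Tlr6 each had a second listed start without a match. The listed starts of Tlr1, Tlr2, Tlr3 and Tlr6 lie inside the annotated gene. Its upstream end is at chr5:64933600 for Tlr1, chr3:83841824 for Tlr2, chr8:45411075 for Tlr3 and chr5:64970942 for Tlr6. The stretches printed for these genes therefore lie within the gene, and that of Myd88 lies upstream of it. The Tlr2 stretch (chr3:83841762-83841791) holds overlapping NF-kB matches on both strands, 173 to 163 bases before the start, and the Tlr3 stretch (chr8:45410572-45410601) holds 1 such match, 211 to 202 bases before it. The Myd88 stretch (chr9:119340039-119340068) has the response element letters 40 to 31 bases before the start. The Tlr9 window held none of the 3 motifs.

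Of the lipopeptide receptors, Tlr1 was lower on every Dap12-deficient array, while Tlr2 and Tlr6 overlapped between the groups. Tlr1 (1449049_at) gave signals of 156, 196 and 181 on wild-type arrays 1, 2 and 3 and of 128, 143 and 77.6 on Dap12-deficient arrays 1, 2 and 3. All 3 Dap12-deficient arrays thus lay below the lowest wild-type array, and array 3 lay lowest. Means were 178 ± 20.0 (SD, n = 3) and 116 ± 34.3 (SD, n = 3). The log2 difference was -0.58 (95% interval -1.10 to -0.06, limma adjusted p = 0.424), which did not pass, and it was -0.35 without Dap12-deficient array 3. It stayed negative under the 18 alternatives run on it, between -1.27 and -0.35.

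Tlr2 (1419132_at), the partner shared by Tlr1 and Tlr6, gave 3376, 3794 and 2666 on wild-type and 3570, 3580 and 3158 on Dap12-deficient arrays. The groups overlapped, and all 3 Dap12-deficient arrays lay within the wild-type range. The log2 difference was 0.08 (95% interval -0.32 to 0.48, limma adjusted p = 0.902) and turned to -0.17 with a common median. Tlr6 (1421352_at) gave 43.5, 52.0 and 39.2 on wild-type and 21.8, 46.0 and 67.5 on Dap12-deficient arrays. The Dap12-deficient arrays lay below, inside and above the wild-type range, a spread of 3.09-fold against 1.33-fold in wild-type cultures. The group means were 44.9 and 45.1, and the log2 difference was -0.06 (95% interval -0.67 to 0.54, limma adjusted p = 0.952).

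**Figure D1:**
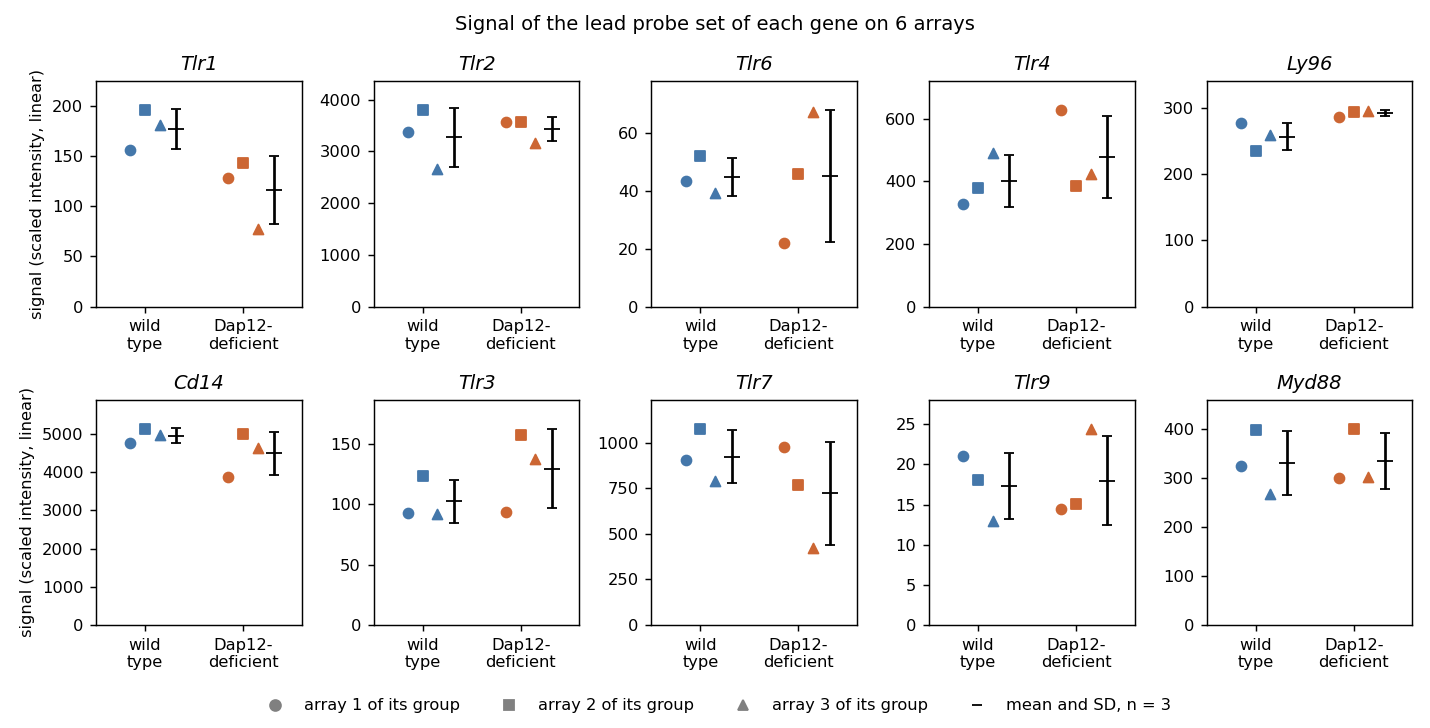
Signals (linear scaled intensity, vertical axes from 0) of the lead probe set of each of the 10 genes on 3 wild-type and 3 Dap12-deficient arrays, with the mean and SD of each group (n = 3). The groups are apart for Tlr1 (156 to 196 against 77.6 to 143) and for Ly96 (236 to 277 against 287 to 296), and the points of the other 8 genes overlap; the order of Ly96 is that of the deposited scaling, and its mean difference turns to -0.06 with a common median.

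In the lipopolysaccharide receptor complex, Tlr4 and Cd14 overlapped between the groups by their lead sets and Ly96 did not. Tlr4 (1418162_at) gave 328, 380 and 491 on wild-type and 626, 384 and 423 on Dap12-deficient arrays, with array 1 above all others and arrays 2 and 3 inside the wild-type range. The log2 difference was 0.24 (95% interval -0.29 to 0.76, limma adjusted p = 0.749), and it was -0.01 with a common median. A second Tlr4 probe set (1418163_at) from the same transcript record gave 179, 183 and 246 on wild-type and 436, 207 and 179 on Dap12-deficient arrays. Relative to the wild-type mean, Dap12-deficient array 1 stood at 1.57 in the first and 2.15 in the second set, and without this array the second set's log2 difference went from 0.32 to -0.05.

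The other Tlr4 probe sets were dim. The set 1442827_at gave 4.35, 0.589 and 5.41 on wild-type and 30.6, 6.83 and 15.2 on Dap12-deficient arrays, so that all Dap12-deficient arrays lay higher. Its log2 difference was 0.73 (95% interval 0.16 to 1.30, limma adjusted p = 0.373), with a size that the pseudocount sets (2.07 with 1 and 0.26 with 64), and it was 0.46 without Dap12-deficient array 1. Its wild-type mean of 3.45 lay below the filter on mean signal, 8.51, which it passed through the Dap12-deficient arrays only, so that a tested difference had to be upward. The set 1430695_at, at 1.24 to 5.30 on the 6 arrays, did not pass the filter and was not tested.

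Ly96 (1449874_at), the lipopolysaccharide-binding partner of Tlr4, gave 277, 236 and 259 on wild-type and 287, 294 and 296 on Dap12-deficient arrays. The Dap12-deficient arrays lay close together and above all wild-type arrays, by a log2 difference of 0.18 (95% interval -0.22 to 0.57, limma adjusted p = 0.752), which turned to -0.06 with a common median. Cd14 (1417268_at), which hands the ligand over, gave 4762, 5132 and 4984 on wild-type and 3887, 4988 and 4627 on Dap12-deficient arrays. Dap12-deficient arrays 1 and 3 lay below and array 2 inside the wild-type range, and the log2 difference was -0.15 (95% interval -0.51 to 0.22, limma adjusted p = 0.777). The 95% intervals of the lead sets of Tlr4, Ly96 and Cd14 thus leave room for differences of up to 0.76, 0.57 and -0.51 on the log2 scale.

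Among the endosomal receptors, Tlr7 had the larger differences, and its probe sets disagreed on which cultures were low. The lead set (1422010_at) gave 907, 1076 and 791 on wild-type and 978, 769 and 421 on Dap12-deficient arrays, with array 3 lowest and array 1 inside the wild-type range. Its log2 difference was -0.42 (95% interval -1.05 to 0.22, limma adjusted p = 0.626), and it was -0.08 without Dap12-deficient array 3. The other Tlr7 sets both derive from a single expressed sequence tag. The set 1419848_x_at gave 228, 185 and 231 on wild-type and 70.2, 119 and 189 on Dap12-deficient arrays, a log2 difference of -0.78 (95% interval -1.43 to -0.14, limma adjusted p = 0.388). The set 1449640_at gave 247, 222 and 201 on wild-type and 120, 121 and 209 on Dap12-deficient arrays, a log2 difference of -0.57 (95% interval -1.09 to -0.04, limma adjusted p = 0.440). In these sets Dap12-deficient arrays 1 and 2 were low and array 3 was inside the wild-type range, whereas arrays 1 and 3 stood the other way round in the lead set and array 2 was low in all of them. A name ending in x marks a set whose probes can bind several transcripts.

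**Figure D2:**
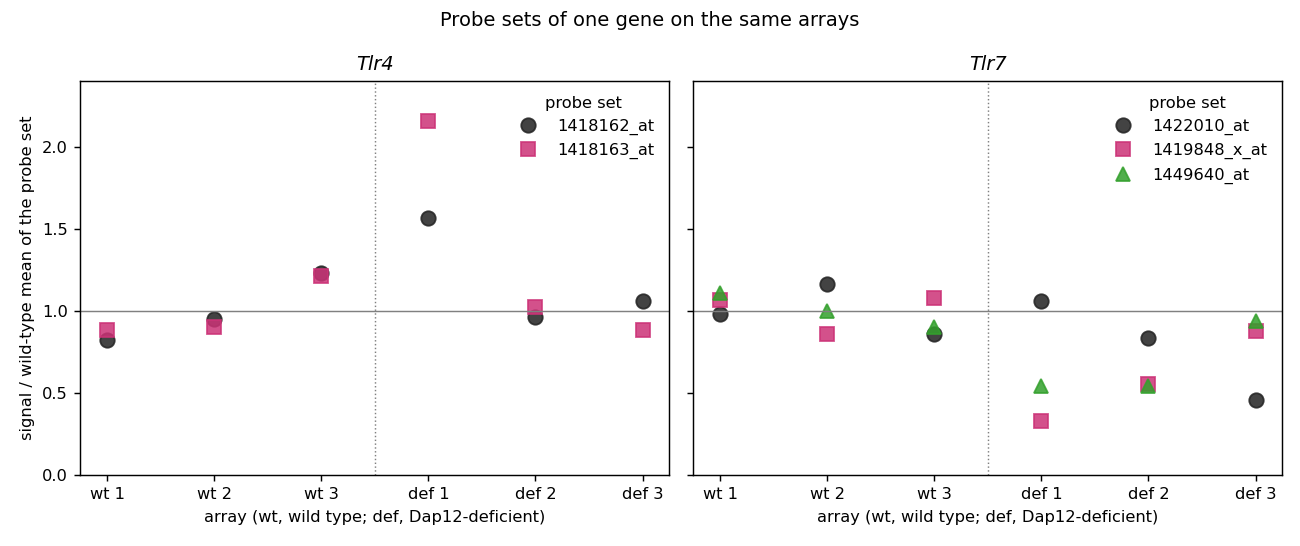
Signal of each array divided by the wild-type mean of the same probe set (vertical axis, ratio, no unit) for the brighter probe sets of Tlr4 (left, 2 sets) and Tlr7 (right, 3 sets) on wild-type (wt) and Dap12-deficient (def) arrays. The Tlr4 sets share a high Dap12-deficient array 1 (1.57 and 2.15), whereas for Tlr7 the lead set is lowest on Dap12-deficient array 3 (0.455) and the other sets on arrays 1 and 2 (0.327 to 0.552).

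Tlr7 is an X-linked gene, and the cultures differed in sex-linked transcripts. The Y-linked translation factor gene Eif2s3y stood at 571 to 649 on wild-type and 64.5 to 176 on Dap12-deficient arrays. With a term for Y-linked genes in the model, the Tlr7 log2 differences were -2.13 (SE 0.63, limma adjusted p = 0.484) for the lead set and 1.01 and 0.30 for the others, while that of Tlr1 was -1.27 (SE 0.66, limma adjusted p = 0.649). Standard errors were 0.23 for Tlr1 and 0.29 for the Tlr7 lead set without the term. The Y-linked signals separated the groups, so that sex and Dap12 status can hardly be told apart in these arrays.

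The double-stranded RNA receptor Tlr3 gave 92.6, 123 and 91.5 on wild-type and 93.3, 157 and 138 on Dap12-deficient arrays in its lead set (1422782_s_at). Dap12-deficient arrays 2 and 3 lay above and array 1 inside the wild-type range, with a log2 difference of 0.28 (95% interval -0.22 to 0.79, limma adjusted p = 0.681). The dimmer set 1422781_at gave 35.7 to 40.4 on wild-type and 25.3, 54.6 and 27.0 on Dap12-deficient arrays, a log2 difference of -0.13 (limma adjusted p = 0.875). Both Tlr3 sets were higher on Dap12-deficient array 2 than on any wild-type array, and they differed on array 3. Astrocytes also carry Tlr3, and the summed signal of 7 astrocyte markers, none of them at 0, was 374 to 569 on wild-type and 375 to 1346 on Dap12-deficient arrays, with Dap12-deficient array 3 highest. The sum was lowest on array 2 of each group (374 and 375), where the Tlr3 lead set was highest in that group. Its part in the Tlr3 values was not tested.

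The CpG DNA receptor Tlr9 (1422083_at) was dim, at 21.1, 18.1 and 12.9 on wild-type and 14.4, 15.1 and 24.4 on Dap12-deficient arrays. The groups overlapped throughout, and the log2 difference was 0.02 (95% interval -0.42 to 0.46, limma adjusted p = 0.980), which changed sign under 5 alternatives. At this signal the added pseudocount of 16 is about as large as the value itself, which shrinks differences. The adaptor Myd88 (1419272_at) gave 326, 400 and 269 on wild-type and 302, 401 and 303 on Dap12-deficient arrays. Array 2 of each group was the highest, and the log2 difference was 0.02 (95% interval -0.46 to 0.50, limma adjusted p = 0.983) and turned to -0.22 with a common median.

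**Figure D3:**
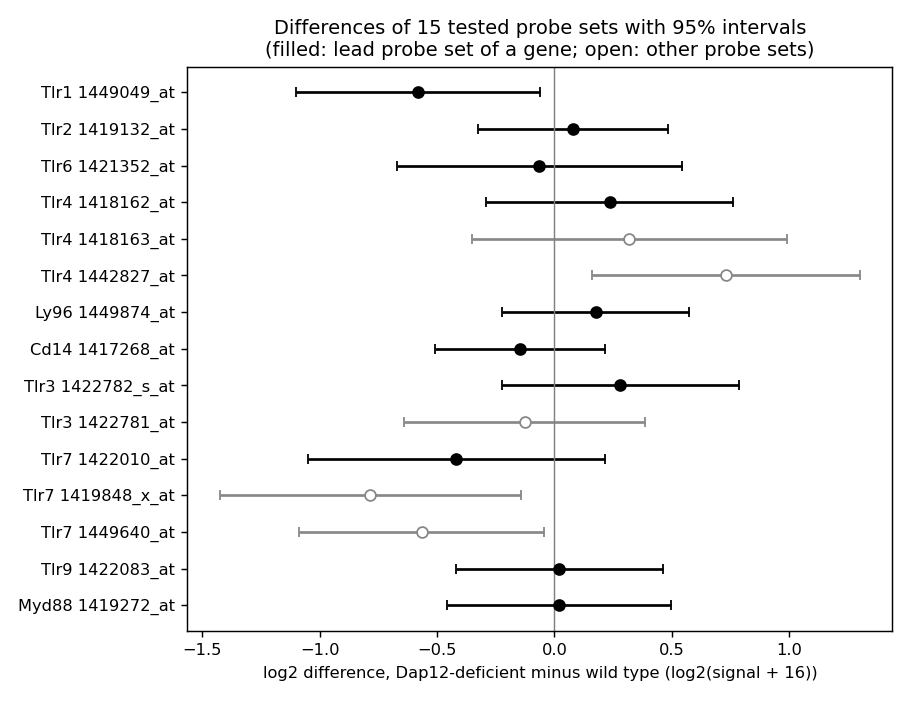
Log2 differences (Dap12-deficient minus wild-type, on log2(signal + 16), horizontal axis) of the 15 tested probe sets with 95% intervals from limma, filled for lead sets and open for other sets of a gene. Intervals lie apart from 0 before adjustment for Tlr1 (-0.58), 2 Tlr7 sets (-0.78 and -0.57) and the dim Tlr4 set 1442827_at (0.73), and no set passes after adjustment; the small positive values of Tlr2, Tlr4 1418162_at, Ly96, Tlr9 and Myd88 turn negative with a common median.

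The range from the lowest to the highest array was wider in Dap12-deficient than in wild-type cultures for 7 of the 10 lead sets, which is near the 61.4% of all genes tested. The range in Dap12-deficient cultures was 1.84-fold for Tlr1, 2.32-fold for Tlr7 and 1.03-fold for Ly96, against 1.25-fold, 1.36-fold and 1.18-fold in wild-type cultures. Genes whose profile over the 6 arrays was most like that of Tlr1, by the root mean square difference of centred log2 signals, were Gad1 (0.05), Alg5 (0.06) and Poli (0.06). For Tlr3, the gene with the highest difference, they were Slc22a16 (0.06), Cdiptos (0.07) and Rhof (0.07). With 6 arrays and 12875 genes such likeness is a description only.

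Of the other Toll-like receptors, Tlr13, an endosomal receptor of bacterial ribosomal RNA, gave 681, 1031 and 619 on wild-type and 758, 676 and 811 on Dap12-deficient arrays, a log2 difference of -0.02 (limma adjusted p = 0.982) that changed sign under 6 alternatives, quantile normalization and cyclic loess among them. Tlr5, the flagellin receptor, was dim and gave a log2 difference of -0.39 (limma adjusted p = 0.602), and Tlr12 gave 0.21 (limma adjusted p = 0.829). Tlr8 did not pass the filter, and Tlr11 was not analysed here.

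Of 9 genes for proteins that fold, traffic or accompany the receptors, 3 were higher and 6 lower, with a median log2 difference of -0.08, and 0 passed. Ly86 (MD-1), the partner of the Tlr4-like receptor Cd180, gave 4723, 6062 and 4944 on wild-type and 2968, 3852 and 3244 on Dap12-deficient arrays. All 3 Dap12-deficient arrays lay lower, by a log2 difference of -0.64 (95% interval -1.04 to -0.25, limma adjusted p = 0.335). Lgmn, an endosomal protease that cleaves receptors of this family, ranged from 1009 to 5788 on wild-type arrays alone and had a log2 difference of 0.70 (limma adjusted p = 0.635), which was 0.094 without wild-type array 1 and 1.35 without wild-type array 2. Of 4 adaptors with a TIR domain or linked to one, 2 were higher and 2 lower (1 and 3 with a common median) and 0 passed. Sarm1, dim at 1.56 to 19.1 on wild-type and 19.7 to 23.4 on Dap12-deficient arrays, had 0.49 (limma adjusted p = 0.530), which was 1.26 with a pseudocount of 1, 0.18 with 64 and 0.19 without wild-type array 3, and Tirap, which brings Myd88 to Tlr2 and Tlr4, -0.21 (limma adjusted p = 0.779).

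The signalling steps below the receptors showed no passing gene either. Of 13 kinases and ubiquitin ligases 7 were higher and 6 lower (1 and 12 with a common median), with a median of 0.02. The ligase Peli1 had 0.44 (limma adjusted p = 0.504), or 0.19 with a common median, and Ikbkb, a kinase of the inhibitor of NF-kB, -0.31 (limma adjusted p = 0.611). Of 7 transcription factors 2 were higher and 5 lower, with a median of -0.28. The NF-kB subunit gene Rel gave 117, 95.6 and 91.0 on wild-type and 149, 145 and 209 on Dap12-deficient arrays, all higher, with a log2 difference of 0.64 (limma adjusted p = 0.356), and Jun had 0.43 (limma adjusted p = 0.475). With a common median Rel was 0.41 and Jun 0.18. Of 11 negative regulators 6 were higher and 5 lower (3 and 8 with a common median), with a median of 0.04. Tnfaip3, which removes ubiquitin chains from signalling complexes, had 0.39 (limma adjusted p = 0.520), or 0.14 with a common median, and the phosphatase gene Inpp5d -0.38 (limma adjusted p = 0.632).

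Of 11 genes listed as targets of the Myd88 branch 9 were higher and 2 lower, with a median of 0.47. With a common median 8 were higher and 3 lower. The list held Tnf, Il1b, Il6, Cxcl1, Cxcl2, Ccl3, Ccl4, Nfkbiz, Ptgs2, Il1a and Cxcl10. Cxcl10, at 0.005, is also induced through the TRIF branch. None passed with all arrays, and 6 of 11 (5 higher and 1 lower) had an unadjusted p under 0.05, beside 9.63% of all genes. That count was 5 with a common median and 3 with a term for Y-linked genes, where 15.1% and 8.34% of all probe sets had such a p. Inflammatory genes had been seen to lie higher in these samples when the list was made, so its count is not independent evidence. Cxcl2, a chemokine for neutrophils, gave 1188, 513 and 904 on wild-type and 2616, 2291 and 3831 on Dap12-deficient arrays, with a log2 difference of 1.77 (limma adjusted p = 0.179). Nfkbiz, a nuclear regulator of NF-kB targets, gave 531, 405 and 459 on wild-type and 911, 842 and 1058 on Dap12-deficient arrays, with 0.99 (limma adjusted p = 0.260). Without Dap12-deficient array 2, Cxcl2 (limma adjusted p = 0.0388) and Ptgs2 passed, where 172 of 27022 probe sets did, beside 2 with all arrays. Tnf and Ccl4, named after their values were seen, lay on opposite sides, at 0.82 (limma adjusted p = 0.444) and -0.91 (limma adjusted p = 0.365). Tnf gave 262, 333 and 167 on wild-type and 309, 363 and 781 on Dap12-deficient arrays, and Ccl4 gave 733, 665 and 660 on wild-type and 341, 601 and 221 on Dap12-deficient arrays. Without Dap12-deficient array 3 the differences were 0.43 and -0.58.

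Of 7 target genes of the TRIF branch 4 were higher and 3 lower (0 and 7 with a common median, 3 and 4 after quantile normalization or cyclic loess), with a median of 0.05, and 0 passed. At an unadjusted p under 0.05 there were 0, beside 9.63% of all genes. With a common median there were 3, and without Dap12-deficient array 2 there were 2, where 15.1% and 14.0% of all probe sets had such a p. The chemokine gene Ccl5 gave 1501, 1713 and 1318 on wild-type and 496, 1781 and 822 on Dap12-deficient arrays, with array 2 above and arrays 1 and 3 below the wild-type range, a log2 difference of -0.73 (limma adjusted p = 0.520). The interferon-induced gene Ifit3 had -0.44 (limma adjusted p = 0.590). The difference between the branches was not tested.

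**Figure D4:**
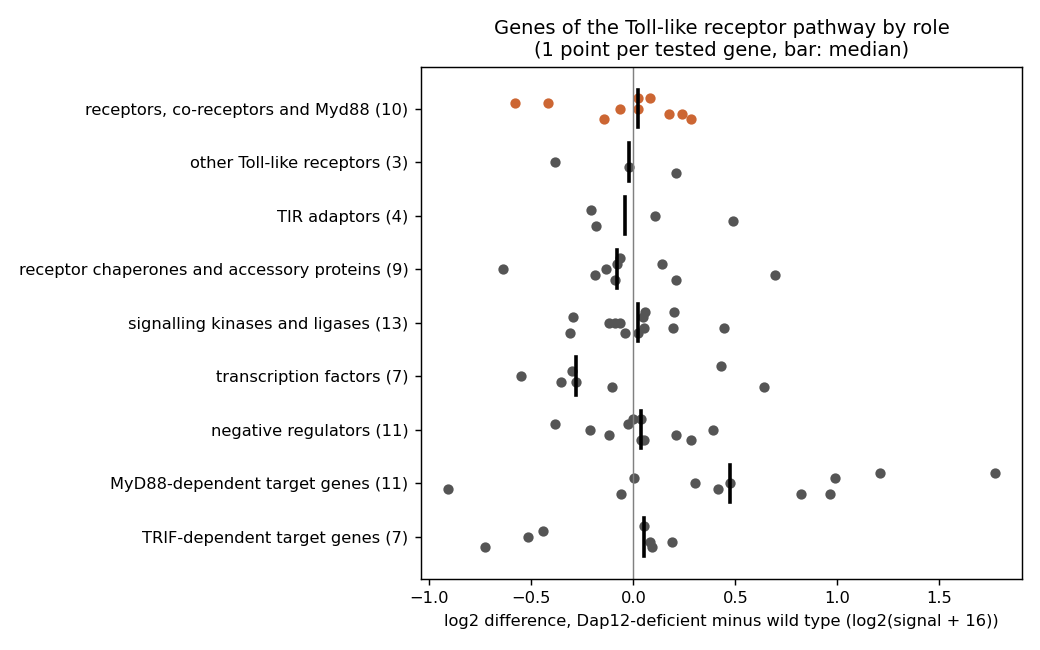
Log2 differences (Dap12-deficient minus wild-type, on log2(signal + 16), horizontal axis) of the 10 genes described here and of 65 further tested genes of the pathway, 1 point per gene by its lead probe set, grouped by role, with the number of genes in brackets and the median as a bar. Medians lie between -0.28 and 0.05 except for the genes listed as Myd88-dependent targets, Cxcl10 among them (0.47, and 0.29 with a common median). That scaling moves the other medians below 0.

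In the main fit no marker of another cell type passed the threshold, and some lists lay to one side. Of 4 oligodendrocyte precursor markers 2 were higher and 2 lower. Cspg4 of that list gave 162 to 174 on wild-type and 43.3 to 55.4 on Dap12-deficient arrays, a log2 difference of -1.51 (limma adjusted p = 0.0613). With a common median, array weights or no eBayes trend 1 marker of that list passed, where 5, 4 and 3 of 27022 probe sets did. It also passed without Dap12-deficient array 1 or 2, where 15 and 172 probe sets did. All 6 oligodendrocyte markers were lower in Dap12-deficient cultures, with a median log2 difference of -1.62. Mbp, a myelin protein gene, gave 5535, 3839 and 5283 on wild-type and 4714, 1142 and 358 on Dap12-deficient arrays. An unadjusted p under 0.05 was found for 6 of 6 of these markers, beside 9.63% of all genes. That count was 3 without wild-type array 1 or Dap12-deficient array 3, and 2 without wild-type array 3. Of these 6 markers 2 passed without Dap12-deficient array 1 or with the sex term, where 15 and 11 of 27022 probe sets did. All 7 astrocyte markers were higher, with a median of 0.48 and 2 of 7 at an unadjusted p under 0.05, beside 9.63% of all genes. But 6 of 7 were higher with a common median and 4 of 7 without Dap12-deficient array 3. The summed signal of 4 lymphocyte markers was 170 to 233 on wild-type and 71.7 to 115 on Dap12-deficient arrays, carried by Ighm, while Cd3e and Cd79a did not pass the filter. Without Dap12-deficient array 2, 1 lymphocyte marker passed the threshold, where 172 of 27022 probe sets did. The summed signal of 4 dendritic cell markers was 2452 to 2733 on wild-type and 1752 to 2164 on Dap12-deficient arrays, nearly all from Fscn1, and Ccr7 did not pass the filter. Flt3 of that list lay the other way, dim at 1.47 to 12.1 on wild-type and 11.8 to 16.3 on Dap12-deficient arrays. Its wild-type mean of 5.03 lay below the filter on mean signal. The sum of 5 border macrophage markers was 1619 to 1834 on wild-type and 1883 to 2145 on Dap12-deficient arrays, mostly Mrc1, with Cd163 below the filter. Folr2 of the same list lay the other way, at 165 to 185 on wild-type and 76.0 to 119 on Dap12-deficient arrays. The sum of 6 neuron markers was 176 to 234 on wild-type and 105 to 176 on Dap12-deficient arrays, nearly touching at 175.9 and 175.8. It was carried by Tubb3, Gad1 and Snap25. Of 5 tested neuron markers 2 were higher and 3 lower, and Slc17a7 did not pass the filter. Of 8 microglial markers 1 was higher and 7 lower, with a median of -0.21, or -0.46 with a common median. At an unadjusted p under 0.05 there were 0 of 8, or 3 with a common median, where 15.1% of all probe sets had such a p. Sums of 8 microglial markers (18438 to 24595 and 14804 to 22154), 6 oligodendrocyte markers (5292 to 8440 and 1429 to 6379) and 7 astrocyte markers (374 to 569 and 375 to 1346) overlapped between the groups. The part of these cells in the values of Tlr1, Tlr7 or Ly96 was not tested.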

How the data were processed

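The values are probe set signals of 6 arrays, deposited by the authors as linear intensity values scaled per array; the mean after trimming 2% at each end was 100.0 on every array. Per the submitters' processing notes the signals came from GCOS, and per the labels' protocols RNA was taken with Trizol and RNeasy and labelled in a two-cycle kit, which shortens transcripts. No source used here names the summary algorithm. Values of 45101 probe sets were used as deposited, and no array repeated another's values. Genes were named from the 34945 probe sets with 1 symbol (932 had several, 9160 none, and 64 controls were left out).

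The linear model (two-sided, with an intensity trend in eBayes) was fitted in R 4.3.3 by limma 3.58.1 on log2(signal + 16), over 27022 probe sets with a mean at or above the 40th percentile, with Benjamini-Hochberg adjustment over all of them and a threshold of 0.05. An exact permutation test of 3 against 3 arrays cannot go below 0.1. The fit was tested on simulated data. Replicate numbers follow the order of deposit and pair nothing. Genes described, lists and alternatives were chosen with earlier results of these data known. All genes of the main list were named, with the 2 smallest p of each pathway list (all of lists of up to 3). Tnf, Ccl4 and Ptgs2 were added later. Markers of cell types were named without such a rule. List genes without a probe set of 1 symbol were not analysed here. Plots used matplotlib 3.10.9.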

Additional observations from a re-analysis of the deposited data

How the results depend on the processing

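No probe set of the 10 genes passed under any of the 19 alternatives, and their lowest adjusted p was 0.112, for the dim Tlr4 set 1442827_at that passed the filter through 1 group only; the next lowest was 0.228, for Tlr1. The count over all probe sets, 2 as reported, was 5 with a common median, 4 with array weights, 4 with 1 probe set per gene, 11 with the sex term (from 3 Y-linked genes), and 2 to 172 when each array was left out (172 without Dap12-deficient replicate 2, 15 without Dap12-deficient replicate 1). The median over the 10 genes, 0.02, was -0.20 with a common median, 0.13 with the sex term, and -0.10 to 0.079 when each array was left out. Signs turned as follows, and the cause was not tested. With quantile normalization Tlr9 was -0.092 and Tlr13 0.0098, with cyclic loess -0.084 and 0.023, and with array weights Tlr6 was 0.036 and Tlr13 0.0051. With a common median Tlr2 was -0.17, Tlr4 (1418162_at) -0.010, Ly96 -0.065, Tlr9 -0.11 and Myd88 -0.22. With the sex term Tlr2 was -0.23, Tlr6 1.68, the Tlr4 sets 1418162_at, 1418163_at and 1442827_at -0.44, -1.44 and -0.35, Cd14 0.33, Tlr3 (1422781_at) 0.091, the Tlr7 sets 1419848_x_at and 1449640_at 1.01 and 0.30, Tlr13 0.19, Tirap 0.65 and Ccl5 0.65. When each array was left out in turn, values crossed 0 for Tlr2 (-0.061 to 0.19), Tlr6 (-0.33 to 0.25), Tlr4 1418163_at (-0.053 to 0.55), Tlr3 1422781_at (-0.37 to 0.012), Tlr9 (-0.11 to 0.10), Myd88 (-0.11 to 0.16), Tlr12 (-0.070 to 0.47) and Tlr13 (-0.16 to 0.20). Cxcl2 was 1.93 without Dap12-deficient replicate 2, where it passed. No paired analysis was possible because the labels give the groups no shared replicate numbers. Of the pathway genes, leaving out 1 array also moved by over 1.5 times Tlr5 (-0.62 to -0.23), Tirap (-0.38 to -0.035), Jun (0.28 to 0.50), Tnfaip3 (0.26 to 0.50), Inpp5d (-0.585 to -0.117), Ccl5 (-1.21 to -0.31) and Ifit3 (-0.71 to -0.18). Dim probe sets (Tlr9, Tlr5, Tlr12, Sarm1, the dim Tlr4 sets) are limited by signal near the pseudocount.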
